A study of Mus musculus with 32 samples.

Results

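Parathyroid cells made from mouse embryonic stem cells (ESC) were compared after grafting and without grafting. The 4 graft libraries were taken by their title as grafted ESC-derived cells from Gcm2-/- mice. The 16 ungrafted libraries were taken by their title as ESC-derived cells from such mice in experiments 1 to 4, with 4 libraries each. These 20 of the 32 libraries of the study are described here, and the 8 control libraries are given as a further reference. Every library holds RNA of 10 to 20 tdTomato-positive cells picked by hand, turned into cDNA with a SMART-Seq HT kit.

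In both groups the host mice lacked Gcm2 (Gcm2-/-, BDF1B6 background) and had been complemented with mouse ESC that carry tdTomato in the Pth gene (Pth-tdTomato). The graft is labelled male at 12 weeks. Ungrafted experiments 1 to 3 are labelled female and experiment 4 male, all at 9 weeks. Control cells came from C57BL/6-Pthtm1(P2A-tdTomato)/+ mice, experiment 1 labelled male at 8 weeks and experiment 2 female at 11 weeks. The sources used here do not give the site of the graft, the recipient or the time after grafting. Grafting, age and experiment therefore cannot be told apart, and the sex label can be held equal only against ungrafted experiment 4. The graft is 1 experiment, and the labels do not say which animals its 4 libraries came from.

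The parathyroid gland senses blood calcium through the calcium-sensing receptor and releases parathyroid hormone, which raises blood calcium. Its chief cells are secretory: prohormone enters the endoplasmic reticulum (ER) through a translocation channel, loses its signal peptide, is folded by chaperones and is packed into granules with chromogranin A. Cells with a heavy load of secretory protein adjust ER capacity through the unfolded protein response, whose sensors raise the transcription of chaperones and translocation genes. Gcm2 is the transcription factor on which formation and upkeep of the gland depend, and an embryo without it leaves the niche that donor cells can fill.

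The parathyroid label was checked against Pth and Gcm2. Pth took 8.99% to 11.2% of reads in the graft libraries and 6.88% to 12.1% in the ungrafted ones, and the picking on a Pth reporter sets its presence. Depth was 11578193 to 14072323 reads per graft library and 9470744 to 15098391 per ungrafted library, with 11566 to 12284 and 11621 to 13131 genes detected. Gcm2 stood at 503, 614, 515 and 603 CPM in the graft, where CPM are counts relative to the TMM-scaled library total. It ranged from 571 to 1477 CPM with a median of 947 CPM in the ungrafted libraries. The graft libraries at 503 and 515 CPM lay below that range, and those at 614 and 603 CPM lay in its lower part. The summed CPM of 4 Y-linked genes was 1.30 to 8.48 in the graft and 0.591 to 6.17 in the ungrafted libraries, against 138 in the highest control library, although the graft is labelled male. In ungrafted experiment 4, also labelled male, the sum was 1.61 to 2.92 CPM. The labels do not say whether a sex label describes the donor cells or an animal.

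Among 15698 genes tested, 18 passed the edgeR quasi-likelihood test at a Benjamini-Hochberg adjusted p below 0.05, which is 0.115% of all genes. Manf, Spink8 and Klk1b3 rose (0.0191% of genes called higher) and 15 genes fell (0.0956% called lower). A further way to read the data is by separation: all 4 graft libraries lay above all 16 ungrafted libraries for 70 genes (0.446%) and below all of them for 47 genes (0.299%). Of these, 68 and 39 averaged at least 8 CPM, so few genes of low level separated. The shares given below are over all tested genes of any level, and shares matched for level were not computed. The median log2 fold change over all genes was -0.09. The number of calls moved with the libraries fitted: edgeR called 2 genes without control experiment 1 or 2, 6 without ungrafted experiment 1, and 0 without ungrafted experiment 2, 3 or 4. Unadjusted p was below 0.05 for 1768, 1655 and 1873 genes in those last 3 fits, and DESeq2 called 1010 genes and limma voom 316 with all libraries.

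Manf encodes a small protein of the ER lumen that is induced when proteins misfold there and that can be secreted. It stood at 204, 215, 202 and 214 CPM in the 4 graft libraries, against 52.1 to 121 CPM with a median of 70.2 CPM in the ungrafted libraries. The graft libraries were nearly identical to each other, and the lowest of them was far above the highest ungrafted one. The log2 fold change was 1.51 (SE 0.18, edgeR adjusted p = 0.0434), or 2.85-fold. Control libraries spanned 46.0 to 133 CPM, also below every graft library.

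Spink8 encodes a Kazal-type member of the secreted serine protease inhibitors. Its level was 2816, 5111, 3291 and 3800 CPM in the graft and 624 to 1466 CPM with a median of 983 CPM without grafting. Every graft library exceeded every ungrafted library, and the log2 fold change was 1.87 (SE 0.23, edgeR adjusted p = 0.0453), or 3.66-fold. Klk1b3 encodes a glandular kallikrein, the protease subunit of the salivary nerve growth factor complex. It stood at 54.6, 76.7, 69.9 and 88.1 CPM in the graft, against 0 to 13.7 CPM with a median of 5.34 CPM in the ungrafted cells. The groups did not overlap, and the log2 fold change was 3.64 (SE 0.43, edgeR adjusted p = 0.0434), or 12.5-fold.

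Crem, which encodes a cyclic AMP responsive transcription modulator, had the smallest p among separated genes that missed the threshold. It stood at 122, 195, 149 and 224 CPM in the graft and at 8.95 to 69.8 CPM with a median of 49.2 CPM without grafting. The groups did not overlap, with a log2 fold change of 1.90 (SE 0.25, edgeR adjusted p = 0.0540). In the controls Crem reached 122 CPM, level with the lowest graft library. Against ungrafted experiment 4 alone, the experiment that shares the male label, edgeR on single libraries gave Crem 1.74 with an adjusted p of 0.0237. That fit sets 1 experiment against 1 other, with libraries as replicates. Its p-values, here and below, reflect the spread among libraries within an experiment, not between experiments.

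**Figure D1:**
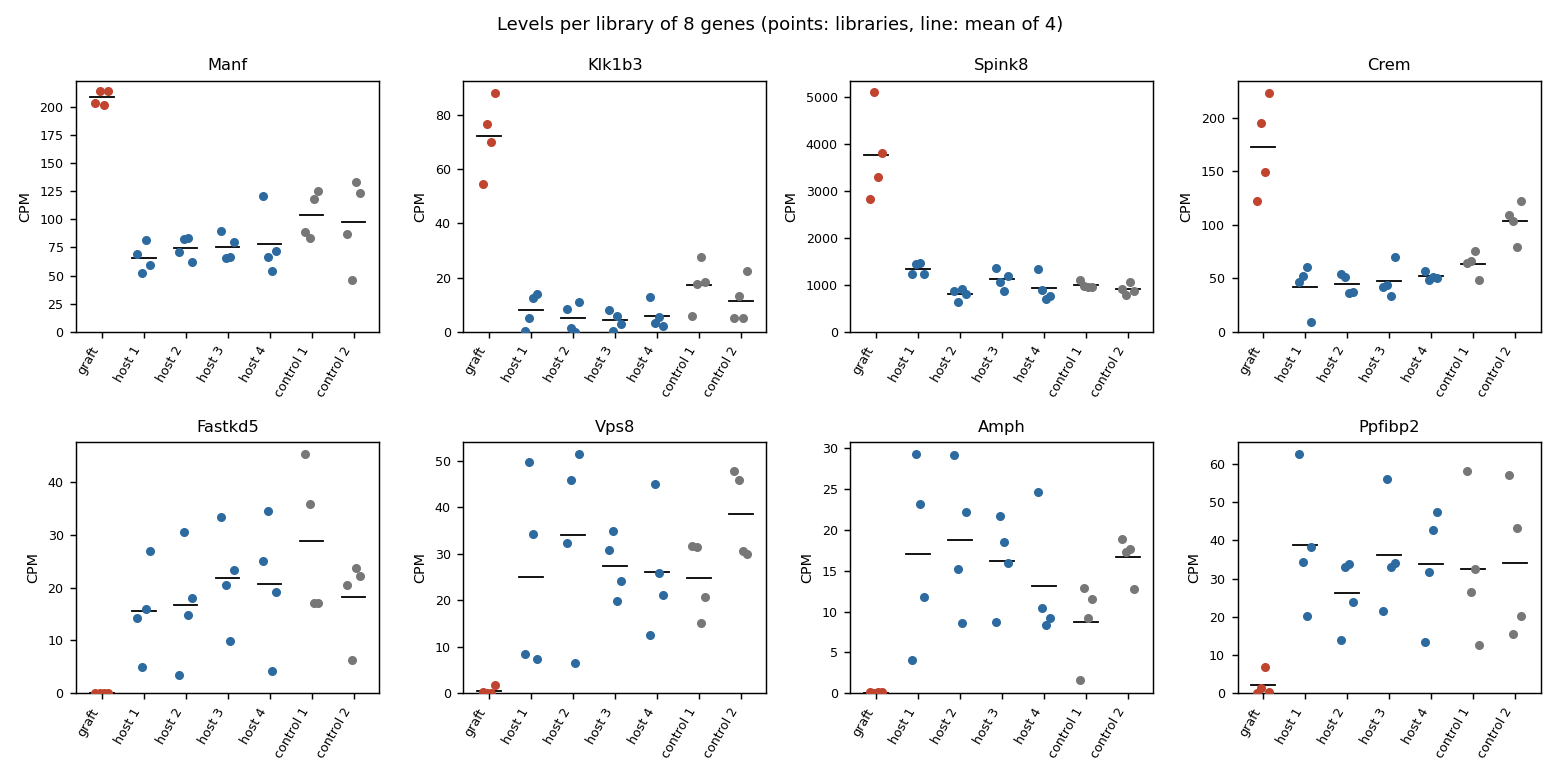
Level of 8 genes in CPM (y axis, linear, from 0) in each library of the graft, the 4 ungrafted host experiments and the 2 control experiments (x axis); points are libraries and lines are means of 4. Manf, Klk1b3, Spink8 and Crem have all 4 graft points above all ungrafted points, and Fastkd5, Vps8, Amph and Ppfibp2 have all 4 below.

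The list of unfolded protein response genes and ER chaperones held 28 tested genes, of which 21 had a positive log2 fold change. Its median was 0.53 beside -0.09 over all genes. Manf rose, and no other member passed the edgeR test. All graft libraries lay above all ungrafted libraries for Hspa5, Hsp90b1, Sdf2l1 and Manf, 4 members beside 0.446% of all genes, and for none in the other direction. The summed level of the list was 8188, 10511, 8420 and 8520 CPM in the graft, and 5093 to 7607 CPM with a median of 6093 CPM in the ungrafted libraries. The 2 groups of sums did not overlap, and control sums ran from 5908 to 7491 CPM. The mean sum was 8910 CPM in the graft and 6046 CPM without grafting. Hspa5 held 2332 and 1344 CPM of it and Hsp90b1 1028 and 626 CPM, so the sum partly restates the separated members. In bulk RNA a different mix of cells and a different amount of RNA per cell cannot be told apart.

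Hspa5 encodes BiP, the main ATP-driven chaperone of the ER lumen and the protein that holds the stress sensors inactive. It stood at 2218, 2884, 2082 and 2144 CPM in the graft and at 1102 to 1693 CPM with a median of 1315 CPM without grafting. Every graft library was above the ungrafted range and above the highest control library, 1993 CPM. The log2 fold change was 0.82 (SE 0.13) and missed the threshold (edgeR adjusted p = 0.0810). Limma voom on single libraries, with a random effect for the experiment, called it (adjusted p = 4.4e-07). That tool called 7 of the members higher and 0 lower, beside 1.59% of all genes called higher. It put the correlation within an experiment at 0.0441, so the 4 graft libraries counted almost as independent. Its p-values, here and elsewhere, hold no spread between graft experiments.

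Hsp90b1, the ER member of the HSP90 chaperones, stood at 947, 1270, 1056 and 840.5 CPM against 421 to 750.5 CPM, with a median of 627 CPM. Its log2 fold change was 0.73 (SE 0.18, edgeR adjusted p = 0.174), and the control libraries reached 1174 CPM, inside the graft range. Sdf2l1, a partner of ER chaperone complexes, stood at 155, 300, 199 and 158 CPM against 69.3 to 147 CPM. Graft replicate 2 was the highest library for Hspa5, Hsp90b1 and Sdf2l1.

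The stress sensors and transcription factors were less uniform. Xbp1, the factor activated by the sensor Ern1, had 290, 311, 398 and 256 CPM against 150 to 264 CPM, with 3 of 4 graft libraries above the range. Atf4, the factor of the translational branch, had 24.4, 78.3, 17.5 and 56.6 CPM against 5.86 to 42.0 CPM, and Atf6 had 13.7, 66.2, 29.3 and 63.0 CPM against 1.61 to 38.2 CPM. In both genes 2 graft libraries lay above the ungrafted range and 2 inside it. Atf3 and Chac1, which rise in strong or lasting stress, had no read in any graft library, and were also near absent without grafting. Atf3 reached at most 0.108 CPM there, and Chac1 at most 6.80 CPM with 14 of 16 libraries below 1 CPM. Trib3 was found in 1 graft library at 12.5 CPM and reached 5.67 CPM in the ungrafted ones, of which 15 were below 1 CPM. The folding enzyme Pdia6 had a log2 fold change of 0.11 (SE 0.20) and Hyou1, an HSP70-like chaperone, -0.58 (SE 0.32), both short of the test.

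Promoters of chaperone genes are known for the ER stress response element, which was searched for as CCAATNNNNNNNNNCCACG and, for the other strand, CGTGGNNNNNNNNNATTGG in the 250 bases before each gene start (RefSeq, GRCm38.p6). It was found for 35 of 27025 genes (0.13%), for 9 of 25 list members with a promoter sequence (36%) and for 0 of 18 ER translocation genes. The sequences of Hspa5 and Hsp90b1 are shown because both carry the element and separated the groups, and that of Pdia6 because it carries the element and did not. Letters of the element are in capitals, 5′ to 3′ on the strand of the gene, and the Hsp90b1 stretch holds a copy on each strand.
Hspa5: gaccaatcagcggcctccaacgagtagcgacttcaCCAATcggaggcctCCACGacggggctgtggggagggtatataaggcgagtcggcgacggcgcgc
Hsp90b1: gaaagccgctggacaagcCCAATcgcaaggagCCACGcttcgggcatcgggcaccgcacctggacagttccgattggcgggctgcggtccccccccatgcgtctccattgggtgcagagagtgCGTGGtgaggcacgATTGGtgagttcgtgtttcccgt
Pdia6: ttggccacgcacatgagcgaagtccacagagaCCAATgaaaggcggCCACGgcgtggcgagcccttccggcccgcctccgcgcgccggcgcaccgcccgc

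The stretches lie at chr2:34771990-34772089 (Hspa5, plus strand), chr10:86705515-86705674 (Hsp90b1, minus strand) and chr12:17266459-17266558 (Pdia6, plus strand), all upstream of the annotated transcript. The element began 65 bases before the start in Hspa5, 212 and 107 bases before it in Hsp90b1 and 98 bases before it in Pdia6. The letters did not sort the members by their values: the 9 members with the element had a median log2 fold change of 0.50 and the 16 without it 0.44. Over all 17 tested genes with the element the median was 0.06. A match describes the sequence only.

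The step before folding is entry into the ER. Of 27 genes for the signal recognition particle, the translocation channel, signal peptidase and the return receptors, 25 had a positive log2 fold change, with a median of 0.52. No member passed the edgeR test, limma voom called 7 higher and 0 lower (beside 1.59% and 0.815% of all genes), and 4 members (Ssr3, Srp9, Srp19 and Spcs1) had all graft libraries above all ungrafted ones, beside 0.446% of all genes. The summed level was 4771, 5928, 5224 and 5577 CPM in the graft, and 3319 to 4728 CPM with a median of 3832 CPM without grafting. The sums did not overlap, although graft replicate 1 was close to the highest ungrafted library, and the controls reached 4600 CPM.

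Spcs1, a subunit of the signal peptidase that removes signal peptides, stood at 623, 777, 710 and 623 CPM against 281 to 564 CPM, with a median of 365 CPM. The groups did not overlap, and the highest control library had 484 CPM. Its log2 fold change was 0.83 (SE 0.15, edgeR adjusted p = 0.110). Srp9 and Srp19, protein subunits of the signal recognition particle, had 0.88 (SE 0.19) and 1.04 (SE 0.24). Sec61b, a subunit of the channel itself, had 260, 283, 224 and 268 CPM against 112 to 229 CPM, with graft replicate 3 inside the ungrafted range. The signal recognition particle receptor genes Srpr and Srprb lay at -0.15 (SE 0.20) and -0.06 (SE 0.28), the 2 members with negative values.

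**Figure D2:**
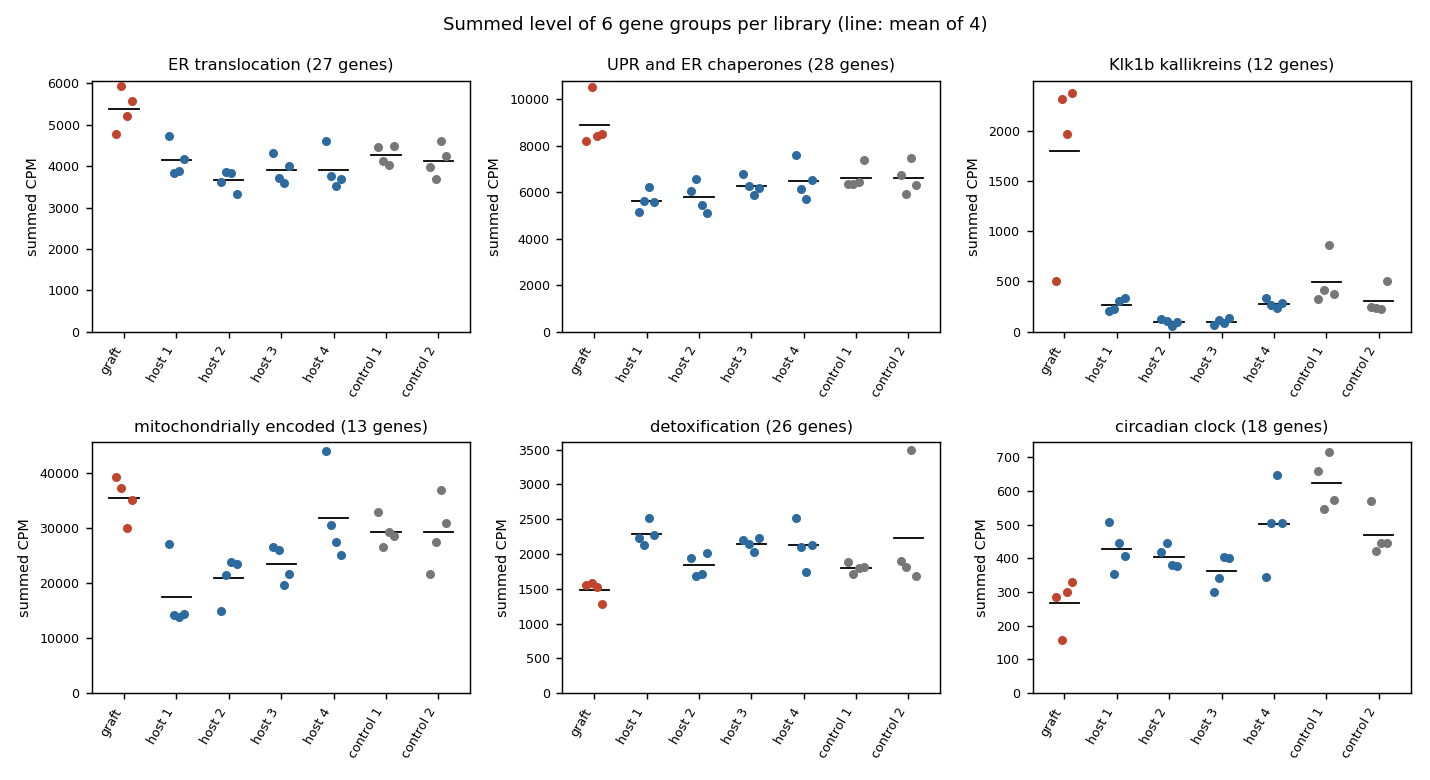
Summed CPM (y axes, linear, from 0) of 6 gene groups in each library of the graft, the 4 ungrafted host experiments and the 2 control experiments (x axis); points are libraries and lines are means of 4. The ER translocation, unfolded protein response and Klk1b sums of all graft libraries lie above every ungrafted library, the detoxification sums lie below, and the mitochondrially encoded and clock sums overlap.

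Klk1b3 belongs to a cluster of mouse glandular kallikrein genes that are known for high expression in salivary gland and for near-identical sequences. The 12 family members were listed after the value of Klk1b3 was seen, and reads of such close copies may be split between them by the quantification, so single members are uncertain. All 12 had positive log2 fold changes. The family sum was 507, 2320, 1968 and 2378 CPM in the graft, and 56.8 to 336 CPM with a median of 168 CPM in the ungrafted libraries. Every graft library was above that range, with replicate 1 far below the other 3, and the control libraries reached 865 CPM, above graft replicate 1.

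Klk1b9, which encodes an epidermal growth factor-binding kallikrein, stood at 126, 916, 458 and 525 CPM against 0.983 to 80.9 CPM, with a median of 22.6 CPM. Klk1b26 stood at 171, 646, 613 and 1114 CPM against 12.8 to 86.2 CPM, with a median of 62.7 CPM. Neither gene overlapped between the groups, and both missed the edgeR test by a small margin (adjusted p = 0.0678 and 0.0540). Klk1b1 stood at 32.7, 121, 73.2 and 15.8 CPM against at most 4.53 CPM and 2.89 CPM in the ungrafted and control libraries (edgeR adjusted p = 0.134). Against ungrafted experiment 4 alone, edgeR on single libraries, which called 0.127% of genes higher, called 5 of the 10 members tested there. They were Klk1b3 (log2 fold change 3.63, adjusted p = 0.0394), Klk1b9 (3.79, adjusted p = 0.0237), Klk1b26 (3.09, adjusted p = 0.0294), Klk1b1 (10.82, adjusted p = 0.0124) and Klk1b4 (2.98, adjusted p = 0.0391). Klk1b1 reached at most 0.0894 CPM in experiment 4, so the size of its fold change there is uncertain. Klk1b8, Klk1b21, Klk1b22, Klk1b24 and Klk1b27 were not called in that fit, with edgeR adjusted p from 0.317 to 0.915.

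**Figure D3:**
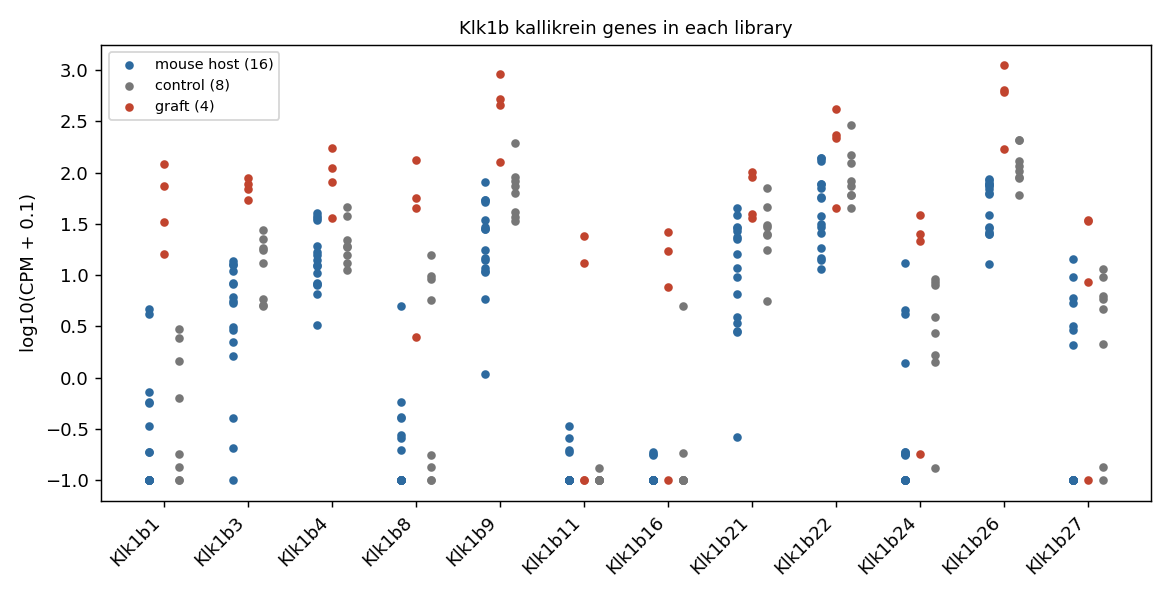
Level of the 12 Klk1b genes (x axis) in each ungrafted, control and graft library as log10(CPM + 0.1), a log scale on which -1 marks no read. Graft points of Klk1b1, Klk1b3, Klk1b9 and Klk1b26 lie above all ungrafted points, while Klk1b11, Klk1b16 and Klk1b27 have graft libraries with no read.

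The 15 genes that fell were of low level in the ungrafted cells, 6.22 to 33.8 CPM on average. In 13 of them every graft library was under 2 CPM, in 4 no graft library had a read, and in 7 at least 1 ungrafted library was also below 1 CPM. The groups did not overlap in 7 of them. With 10 to 20 cells per library, the part of sampling of few cells in these calls was not tested. Each ungrafted experiment also had near-absent genes. Of 8861 genes averaging at least 8 CPM over the graft and ungrafted experiments, 23 were under 1 CPM in all 4 graft libraries. The same held for 10, 11, 15 and 15 genes in ungrafted experiments 1 to 4.

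Fastkd5, which processes mitochondrial RNA, had 0 reads in the 4 graft libraries and 3.38 to 34.4 CPM with a median of 18.6 CPM in the ungrafted ones. With a floor of 3 reads over the 4 graft libraries it was at least 307-fold lower (edgeR adjusted p = 0.0195). Amph, which encodes the membrane-bending endocytic protein amphiphysin, had 0.0796, 0, 0.0922 and 0.0879 CPM in the graft and 4.00 to 29.3 CPM with a median of 15.6 CPM without grafting. That is 3 reads in all, and the ratio was 264 (95% counting interval 90.3 to 1282; edgeR adjusted p = 0.0262). No ungrafted or control library was as low as any graft library for either gene.

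Vps8, a subunit of the CORVET complex that tethers early endosomes, had 0.159, 0, 0.0922 and 1.76 CPM in the graft against 6.57 to 51.4 CPM, with a median of 28.4 CPM. Its log2 fold change was -5.86 (SE 0.54, edgeR adjusted p = 0.0195), with no overlap. Ppfibp2, a liprin scaffold protein gene, had 0, 1.23, 6.82 and 0.264 CPM against 13.3 to 62.6 CPM, with a median of 33.5 CPM. Its log2 fold change was -4.11 (SE 0.40, edgeR adjusted p = 0.0195), and graft replicate 3 was the highest of the 4. Casp2, an initiator caspase gene, had 0, 0.507, 0.830 and 0.352 CPM against 4.14 to 49.3 CPM with a median of 16.1 CPM, a log2 fold change of -5.43 (SE 0.65, edgeR adjusted p = 0.0434).

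Uhrf1 guides the maintenance DNA methyltransferase to newly copied DNA, and was the member of the DNA methylation list that fell. It had 0 reads in the graft and 0 to 44.6 CPM with a median of 5.86 CPM without grafting, and 6 of the 16 ungrafted libraries were below 1 CPM. At the floor of 3 reads it was at least 200-fold lower (edgeR adjusted p = 0.0195), but the groups overlapped at 0. Limma voom on single libraries gave it an adjusted p of 0.174. Orc5, a subunit of the origin recognition complex, had 1 read in the graft, with a ratio of 726 (95% counting interval 130 to 28697), and did not overlap. The other called genes were Arsg, Cfap52, Slc19a1, Fam185a, Gpsm1, Ccdc166, Cmpk2 and Chst12, with log2 fold changes from -11.99 (Chst12, no graft read) to -2.92 (Slc19a1).

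None of the 16 parathyroid hormone, regulator and developmental genes passed the edgeR test, and none separated the groups. The median log2 fold change was -0.17 beside -0.09 over all genes. Pth stood at 88957, 104260, 112670 and 124540 CPM in the graft, and 71434 to 136850 CPM without grafting, a log2 fold change of 0.27 (SE 0.13). Chga had -0.09 (SE 0.09). Casr, the calcium-sensing receptor gene, had 507, 369, 443 and 347 CPM against 272 to 932 CPM with a median of 570 CPM, a log2 fold change of -0.53 (SE 0.26). All 4 graft libraries were below the ungrafted median and inside the range.

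Gata3, a transcription factor that acts with Gcm2, stood at 486, 257, 377 and 369 CPM against 354 to 755 CPM with a median of 595 CPM. Its log2 fold change was -0.64 (SE 0.25, edgeR adjusted p = 0.360), and that of Gcm2 -0.78 (SE 0.34, edgeR adjusted p = 0.402). Limma voom called both lower (adjusted p = 0.0371 and 0.0456), beside 0.815% of all genes called lower by that tool. Against ungrafted experiment 4 alone the values were -0.28 and -0.57, and edgeR called neither (adjusted p = 0.924 and 0.279). Kl, the FGF23 co-receptor, and Vdr, the vitamin D receptor, had -0.29 (SE 0.25) and -0.22 (SE 0.25).

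In the lists of calcium-sensing receptor signalling, exocytosis and granule genes, 1 member had all graft libraries above all ungrafted ones, beside 0.446% of all genes. Ap2s1, the adaptor subunit that takes up the calcium-sensing receptor from the membrane, stood at 182, 176, 208 and 243 CPM against 74.1 to 167 CPM, with a median of 99.3 CPM. The graft libraries were above all ungrafted and all control libraries, the latter up to 134 CPM, with a log2 fold change of 0.83 (SE 0.24, edgeR adjusted p = 0.227). The calcium-sensing receptor signalling list of 22 tested genes had 9 positive values and a median of -0.10, the exocytosis list 9 of 22 and -0.10, and the granule cargo and processing list 4 of 13 and -0.34. Against experiment 4 alone these medians were 0.21, 0.08 and -0.03, over the 19, 18 and 7 members tested there. The first 2 had the other sign, but over fewer genes, and no median over the same genes was computed. No member of the 3 lists passed the edgeR test.

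All 13 mitochondrially encoded genes had positive log2 fold changes, with a median of 1.04, and none passed the edgeR test. Limma voom called 11 of them higher, beside 1.59% of all genes. Their sum was 39383, 37351, 29981 and 35212 CPM in the graft, against 13874 to 44130 CPM with a median of 23712 CPM. The graft libraries were all above that median, and the ungrafted experiments differed among themselves. Against experiment 4 alone, whose mean sum was the highest, the median log2 fold change was 0.36, less than the 1.04 against all 4 experiments. The share of reads from these genes was 2.82% to 3.98% in the graft and 1.34% to 3.90% in the ungrafted libraries.

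Among 33 nuclear genes of the respiratory chain, 24 had positive values and the median was 0.22. Cox5a, a subunit of cytochrome oxidase, stood at 340, 332, 319 and 364 CPM against 165 to 301 CPM, and Cycs, cytochrome c, at 222, 234, 268 and 236 CPM against 80.5 to 191 CPM. Both separated the groups upward, beside 0.446% of all genes. Sdha, the flavoprotein of succinate dehydrogenase, separated them downward, at 412, 603, 638 and 656 CPM against 682 to 1016 CPM, beside 0.299%. The edgeR adjusted p was 0.219, 0.187 and 0.290 for these genes in turn.

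Metallothioneins bind zinc and copper. Mt1 stood at 146, 199, 116 and 219 CPM in the graft, against 4.79 to 73.2 CPM with a median of 30.9 CPM. Mt2 stood at 54.5, 36.6, 32.1 and 38.3 CPM, against 0.0813 to 10.2 CPM with a median of 3.74 CPM. Both were above every ungrafted and every control library, with log2 fold changes of 2.31 (SE 0.42, edgeR adjusted p = 0.110) and 3.15 (SE 0.61, edgeR adjusted p = 0.117). These 2 genes separated the groups upward, beside 0.446% of all genes, and the other 20 genes of the antioxidant and metal list did not. The list median was -0.0033 (11 of 22 positive). Among 16 steroid receptor and glucocorticoid-induced genes 1 separated the groups, beside 0.446% of all genes. It was Klf9, a Krüppel-like transcription factor gene, at 23.9, 62.0, 37.6 and 27.96 CPM against 4.595 to 21.96 CPM. Fkbp5 and Tsc22d3, of the same list, had -0.04 (SE 0.57) and -0.13 (SE 0.25).

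No detoxification gene passed the edgeR test, and the median of the 23 tested members was -0.09, as for all genes, with 9 positive values. The summed level of 26 listed genes was 1561, 1582, 1525 and 1275 CPM in the graft, against 1680 to 2517 CPM with a median of 2131 CPM, with no overlap. Cbr2, a carbonyl reductase, stood at 145, 165, 222 and 173 CPM against 237 to 648 CPM, and Ephx1, the microsomal epoxide hydrolase, at 86.6, 157, 133 and 72.5 CPM against 165 to 258 CPM. Both separated the groups downward (log2 fold change -1.29, SE 0.35, and -0.94, SE 0.19), beside 0.299% of all genes. For Cbr2, edgeR on single libraries against experiment 4 gave an adjusted p of 0.0297. Much of the lower sum came from Cbr2 and Ephx1. The mean sum was 1485 CPM in the graft and 2098.5 CPM without grafting. Cbr2 held 176 and 428 CPM of it, and Ephx1 112 and 219 CPM.

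Psap, the precursor of lysosomal saposins, stood at 185, 261, 299 and 158 CPM against 334 to 729 CPM with a median of 519 CPM, a log2 fold change of -1.21 (SE 0.24, edgeR adjusted p = 0.124). Hexa, a subunit of the lysosomal hexosaminidase, stood at 83.3, 54.6, 105 and 95.1 CPM against 118 to 270 CPM. Both separated the groups, beside 0.299% of all genes. The lysosome and autophagy list as a whole had 12 of 32 positive values and a median of -0.10, close to that of all genes, and none of its members passed the edgeR test. Limma voom called Psap, Hexa and Grn lower, beside 0.815% of all genes.

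Nr1d1, the REV-ERB repressor of the clock, stood at 24.5, 12.6, 15.4 and 10.6 CPM against 37.5 to 125 CPM with a median of 70.1 CPM. All graft libraries were below all ungrafted libraries and below the lowest control library, 73.8 CPM, with a log2 fold change of -2.15 (SE 0.35, edgeR adjusted p = 0.0810). Nr1d1 was the 1 of 17 tested clock genes that separated the groups, beside 0.299% of all genes separated downward. Its paralog Nr1d2 had -1.49 (SE 0.31), and Dbp, an output factor of the clock, -1.24 (SE 0.60), both with overlap. The median over 17 tested clock genes was -0.35, and the sums overlapped (158 to 330 CPM against 300 to 647 CPM). The hour of collection is not given in the sources used here.

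Of 31 extracellular matrix genes 10 had positive values, with a median of -0.77, and none passed the edgeR test. Their summed level went the other way, at 5261, 4445, 4091 and 9672 CPM in the graft against 1684 to 6638 CPM with a median of 3370 CPM. All 4 graft sums were above that median and replicate 4 was above the range. Most of each graft sum was Spp1, which encodes the secreted phosphoprotein osteopontin, at 3970, 3325.5, 3003 and 8664.5 CPM against 50.5 to 4814 CPM with a median of 1449 CPM. Its log2 fold change was 1.45 (edgeR adjusted p = 0.629), limma voom called it higher (adjusted p = 0.0199), and edgeR against experiment 4 alone gave 2.79 with an adjusted p of 0.0237. Col4a2, a basement membrane collagen chain, stood at 10.3, 7.53, 2.95 and 1.14 CPM against 11.4 to 64.9 CPM and separated the groups, beside 0.299% of all genes. Inhba, which encodes the activin A subunit, stood at 12.98, 13.6, 13.6 and 17.8 CPM against 21.3 to 148 CPM, and was the separated member among 25 genes of TGF-beta and BMP signalling. The edgeR adjusted p was 0.110 and 0.321. Fibroblast markers moved across these libraries too, and their part in the matrix values was not tested: their sum was 707, 204, 152 and 240 CPM in the graft and 147 to 2842 CPM without grafting.

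**Figure D4:**
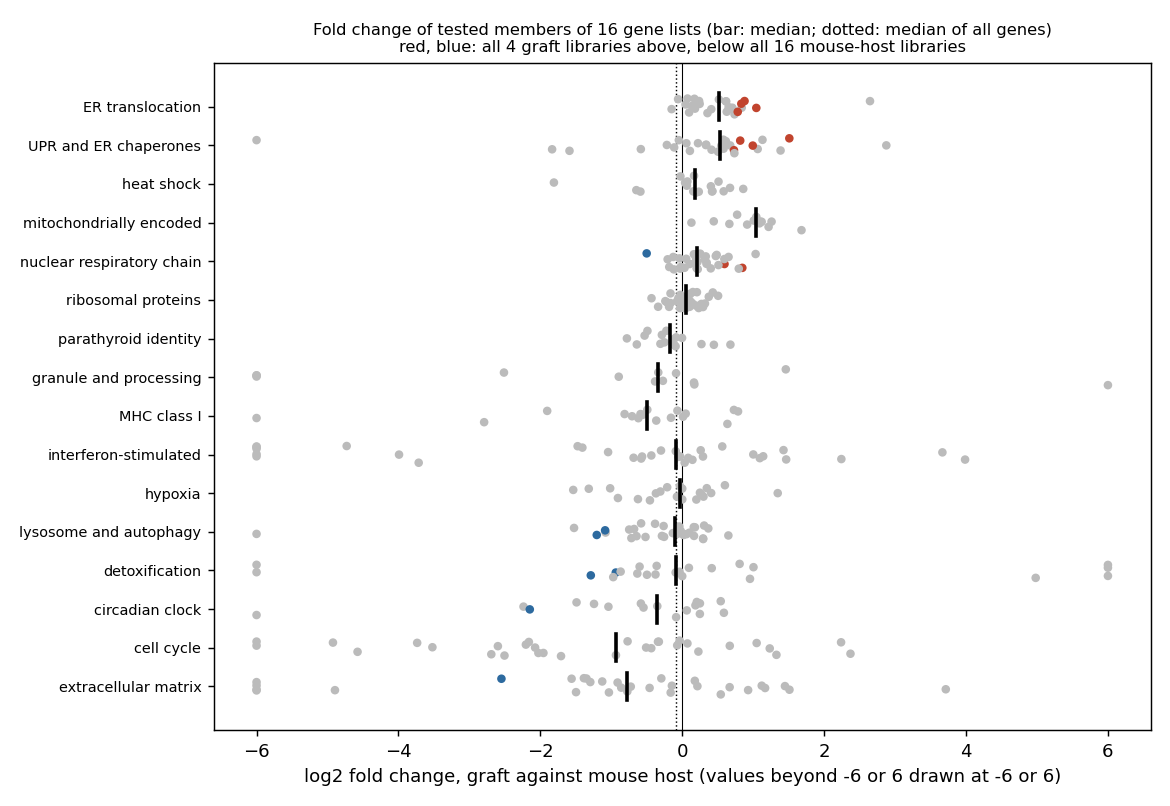
Log2 fold change of graft against ungrafted cells (x axis) for the tested members of 16 gene lists (y axis); points are genes, bars are list medians, the dotted line is the median of all genes and 24 members are drawn at the limits of -6 or 6. Red and blue points mark genes whose 4 graft libraries all lie above or below all 16 ungrafted libraries, and most red points fall in the 2 ER lists.

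Several groups of interest held no called and no separated member. For 17 genes of MHC class I presentation the median log2 fold change was -0.49 with 5 positive, for 33 interferon-stimulated genes -0.09 with 14 positive, and for 13 inflammatory genes 0.00. The 21 hypoxia-induced genes had a median of -0.03 and the 25 angiogenic ligands -0.72 with 7 positive. Cytosolic heat-shock chaperones had a median of 0.18 with 14 of 18 positive, and ribosomal proteins 0.05 with 21 of 34. The 31 cell cycle genes had a median of -0.93 and their sums overlapped (451 to 680 CPM against 403 to 2021 CPM). Immediate early genes had -0.64, and their sum of 397 to 740 CPM lay inside the ungrafted range of 263 to 1471 CPM. Against experiment 4 alone most of these lists had fewer genes tested. Where genes dropped out, no median over the same genes was computed. The median had the other sign for immediate early genes (0.33, 7 of 12 tested positive) and angiogenic ligands (0.03, 14 tested). So it had for interferon-stimulated genes (0.08, 19 tested), hypoxia-induced genes (0.0033, 17 tested) and ribosomal proteins (-0.06, all 34 tested). There the cell cycle median was -0.15 (13 tested), the MHC class I median -0.38 (16) and the heat-shock median 0.04 (18). The inflammatory median was 0.28 (5 tested), beside -0.0055 over all genes.

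Comparison with ungrafted experiment 4 alone holds the sex label equal, with 4 against 4 single libraries of 1 experiment each. There edgeR called 20 of 10984 genes, 14 higher (0.127%) and 6 lower (0.0546%), and 3 of these were among the 18: Spink8, Klk1b3 and Orc5. Manf had a log2 fold change of 1.42 with an adjusted p of 0.0529. The list medians over the members tested there were 0.45 for the unfolded protein response (24 genes) and 0.53 for ER translocation (26). They were -0.41 for detoxification and -0.77 for the clock (15 genes each). The control cells were a further reference. Of the 68 genes that averaged at least 8 CPM and lay above all ungrafted libraries, 33 were also above all 8 control libraries. Of the 39 such genes below all ungrafted libraries, 19 were also below all 8 control libraries. Both sets were picked on the same graft values, so these counts give no separate support. The share over all genes was not computed.

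Markers of other cell types differed between the graft libraries. Graft replicate 1 had sums of 707 CPM for fibroblasts, 29.5 CPM for macrophages and 12.3 CPM for red blood cells, against at most 240, 1.01 and 1.48 CPM in the other 3. Most of the fibroblast sum was Fbln1 in the other 3 (203, 129 and 154 CPM), and other fibroblast markers also set replicate 4 apart. Col3a1 stood at 122, 0.145, 3.50 and 37.6 CPM, Col1a2 at 67.0, 0.145, 0.184 and 18.9 CPM and Dcn at 141, 0.145, 13.4 and 25.2 CPM, with ungrafted medians of 0.0382, 0 and 0.158 CPM and ungrafted maxima of 1140, 282 and 549 CPM. Des, a muscle and pericyte filament gene, stood at 8.36, 0, 0 and 7.12 CPM against at most 0.718 CPM. The MHC class II sum was 119, 36.9, 32.1 and 4.57 CPM against 12.1 to 251 CPM, while its member Cd74, the invariant chain, stood at 26.2, 4.34, 9.04 and 0 CPM against at most 3.45 CPM. Blood vessel endothelial markers summed to at most 0.717 CPM and thyroid follicular markers to at most 3.03 CPM in any graft library. Of the kidney markers Lrp2 was present, at 330 to 540 CPM in the graft and 195 to 2286 CPM without grafting, while Umod and Aqp1 had 0 in all 20 libraries. Without graft replicate 1, edgeR called 53 genes (8 higher, 45 lower), among them all 18 called with it, and the part of such markers in other results was not tested.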

How the data were processed

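Per the submitters' processing notes, the tool was Salmon and the build GRCm39, with the version and annotation not stated there. For each transcript the authors deposited an expected count, a TPM value and an effective length. Expected counts of 115685 of 116747 transcripts were summed to 35458 genes by Ensembl identifier (GENCODE M21, used for names only) and rounded. The other 1062 transcripts held 0.493% of reads and were left out. The 48 pairs of libraries within an experiment differed by more than sampling noise (lowest chi-square per degree of freedom 42.3).

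The libraries of an experiment were added up, and 1 model with the arms control, mouse host, rat host and graft was fitted to the 8 sums in edgeR 4.0.16 and R 4.3.3: quasi-likelihood test, TMM, default filter, Benjamini-Hochberg adjustment over all genes, 4 residual degrees of freedom. The lone graft sum takes its spread from the other arms. A p-value here reflects the spread of these samples, part of which may be technical. CPM are computed from TMM-scaled library sizes. Intervals and floors of counts hold for counting error alone.

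The comparison, its 35 gene lists, the 20 lists of cell type markers and the tests were chosen with earlier results of these data known. Named were called genes averaging at least 8 CPM with separated libraries (up to 12 per direction, filled up to 12 by p), every called list member, up to 4 members of each list by p, and the parathyroid genes, of which 1 is not reported here. Genes named outside this rule, the remaining called genes, and members given for their role, were chosen after their values were seen. There were 25 alternative fits with other scaling, filters, samples, replicate units and tools (limma 3.58.1, DESeq2 1.42.0, and limma on the authors' TPM as log2(TPM + 1)). The fit without ungrafted experiment 4 is counted among them again as the fit against experiments 1 to 3 only. The edgeR procedure was tested on simulated counts. These were drawn with the dispersions estimated from these data, so that test cannot show whether calls would hold in further graft experiments.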

Additional observations from a re-analysis of the deposited data

Results flagged for a closer look

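Of 86 values screened for a graft library far from the other 3, 8 stood out, where chance gives about 1 in 20. Replicate 1 had 16.7 CPM of Slc19a1, the folate carrier gene, against 0 to 0.0922 CPM in the others, and without it edgeR still called the gene. Replicate 1 also had a fibroblast marker sum of 707 CPM against 152 to 240 CPM and a macrophage marker sum of 29.5 CPM against 0.0879 to 1.01 CPM. Replicate 2 had the highest Hspa5, 2884 CPM against 2082 to 2218 CPM, the highest sum of unfolded protein response genes, 10511 CPM against 8188 to 8520 CPM, and the highest sum of p53 and apoptosis genes, 1009 CPM against 531 to 589 CPM. Replicate 4 had 1.76 CPM of Vps8 against 0 to 0.159 CPM, and a sum of steroid receptor and glucocorticoid-induced genes of 476 CPM against 353 to 369 CPM.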

How the results depend on the processing

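The count of 18 called genes (3 higher, 15 lower) was the same with RLE size factors, with Pth and Chga out of the scaling, without the rat host, and without 2 libraries high in fibroblast markers (6 higher, 12 lower). It was 20 against experiment 4 alone, with 3 genes shared. It moved to 6 with an effective length offset (0 higher), 56 without a filter on low counts (8 higher, 48 lower), 1010 in DESeq2 (116 higher, 894 lower), 316 in limma voom (209 higher, 107 lower), 259 by limma-trend on log2(TPM + 1) (200 higher, 59 lower) and 477 with single libraries as independent (208 higher, 269 lower). It was 0 in edgeR with graft and mouse-host experiments only (1811 genes at an unadjusted p below 0.05, smallest adjusted p 0.0617) and 0 against experiments 1 to 3 only (1873 genes, 0.0681). Leaving out 1 graft library or 1 experiment at a time gave 0 to 77 calls, with 53 to 77 for the graft libraries. The causes were not tested.

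A coefficient per experiment on single libraries called 365 genes (197 higher, 168 lower), and 272 (144 higher, 128 lower) with a replicate block. The replicate numbers do not pair the samples: the deviations of 40 same-numbered pairs correlated at -0.0611 to 0.0786, none over 0.1, and 6 of 20 libraries correlated best with their own number.

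Over its alternatives Manf was called in 15 of 25 fits (log2 fold change 1.36 to 1.54, adjusted p 4.1e-09 to 0.126), Spink8 in 16 (1.64 to 2.03, 1.9e-11 to 0.108) and Klk1b3 in 16 (3.35 to 4.67, 3.3e-08 to 0.126). Hspa5 was called in 8 (0.64 to 0.86) and Pth, Chga and Casr in 0. These tallies include the repeated fit, and they mix fits on experiment sums with fits that take libraries as replicates. No called direction turned among the genes followed.

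The spread of grafting itself is unknown, since there is 1 graft experiment. At this depth a gene with no graft read is limited to 3 reads over 4 libraries, for counting error only. The choice of libraries described as doubtful in the graft (replicate 1) was made after seeing the data.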

Other observations

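Genes outside the lists also separated the groups. They were chosen here after their values were seen, among 70 genes above and 47 below, and none of those named passed the edgeR test. Nupr1, a small chromatin-associated protein gene induced by cellular stress, stood at 71.3, 95.4, 113 and 149 CPM in the graft, against 0.0764 to 31.1 CPM without grafting and at most 35.1 CPM in control cells (log2 fold change 2.97, SE 0.62, edgeR adjusted p = 0.132). Socs2, a feedback inhibitor of growth hormone signalling, stood at 28.7, 26.2, 36.7 and 21.5 CPM against 0 to 19.1 CPM, with controls up to 56.8 CPM. S100a11, a calcium-binding protein gene, stood at 1217, 1112, 1285 and 1242 CPM against 518 to 1108 CPM, with controls up to 1122 CPM.

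Some of the lower genes picked here encode enzymes of amino acid, amine or folate metabolism. No list of such enzymes was defined, so a pattern among them was not tested. Maob, monoamine oxidase B, stood at 7.01, 16.3, 4.33 and 10.4 CPM against 18.5 to 120 CPM, and Aldh1l1, a folate enzyme, at 12.2, 16.3, 10.8 and 13.98 CPM against 32.8 to 120.45 CPM. Psat1, of serine synthesis, stood at 73.2, 72.6, 11.4 and 106 CPM against 113 to 218 CPM, and Pcca, a propionyl-CoA carboxylase subunit, at 161, 224, 131 and 174 CPM against 255 to 433 CPM. Cd34, a surface sialomucin, stood at 145, 156, 133 and 178 CPM against 186 to 647 CPM, and all 8 control libraries were at 433 CPM or more.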
